A study of Mus musculus with 6 samples.

Results

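Messenger RNA of the renin-angiotensin and aldosterone system was described across 9 genes in tissue labelled as mouse left ventricle. They were taken by symbol match from a table of 21989 genes, and all 9 were found: Agt, Ren1, Ace, Agtr1a, Agtr1b, Agtr2, Mas1, Nr3c2 and Hsd11b2. The tissue came from male C57BL/6 mice of specific-pathogen-free grade. The ISO group was given ISO at 10 mg/kg each day under the skin for 3 weeks, which the labels call a heart failure group, and the saline group, called sham, was given an equal volume of normal saline. No transgene, deletion or further treatment is named for either group, and neither the age of the mice nor their heart function is stated in the sources. Each group has 3 libraries of polyadenylated RNA. These are labelled biological repeats with no animal named, so a p-value here reflects the spread among these samples, part of which may be technical.

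Renin, a protease released mainly by the kidney, cuts angiotensinogen to angiotensin I, and angiotensin-converting enzyme (ACE) trims that peptide to angiotensin II. Angiotensin II acts through the AT1 receptor to constrict vessels, drive fibrosis and release aldosterone from the adrenal cortex, while the AT2 and Mas receptors are known for opposing actions. Aldosterone binds the mineralocorticoid receptor, which also binds glucocorticoids unless the enzyme encoded by Hsd11b2 inactivates them, and drugs against ACE, the AT1 receptor and the mineralocorticoid receptor are in use for heart failure.

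Of the 9 genes, 4 were measured at a mean of at least 1 FPKM (fragments per kilobase of gene length, relative to the library total) and entered the test: the substrate Agt, the enzyme Ace, the receptor Agtr1a and the mineralocorticoid receptor Nr3c2. Ace was higher in ISO, at 1.71 times the saline mean, and Agtr1a was lower, at 0.555 times, with no overlap between the groups in either case. Over all genes tested, 12.8% had no overlap with ISO higher and 3.72% had none with ISO lower. Agt was lower in ISO at 0.674 times the saline mean, with overlap. The difference between the group means of Nr3c2 rested on the high value of 1 saline library. None of the 4 passed limma's moderated test with Benjamini-Hochberg adjustment at 0.05 over the 12269 genes tested (adjusted p = 0.699 for each), and Ace alone had an unadjusted p under 0.05 (0.0152). After median-of-ratios scaling, a rescaling of each library by its typical gene, that turned around. Agt (unadjusted p = 0.0318) and Agtr1a (unadjusted p = 0.0244) were then under 0.05 and Ace (unadjusted p = 0.0776) was not, each with an adjusted p = 0.774 with limma. Quantile normalization likewise put Agt and Agtr1a, and not Ace, under 0.05 unadjusted. Over all genes the test called 0 (0%), while 774 (6.31%) had an unadjusted p under 0.05, 604 (4.92%) of them higher and 170 (1.39%) lower in ISO. A limma-voom fit to recovered reads likewise called 0, with 681 at an unadjusted p under 0.05. The other 5 genes were near or below the detection limit of these libraries.

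The libraries held between 2776152 reads (saline 3) and 9862363 reads (saline 1), recovered from the steps of the deposited values. Saline 3 was both the shallowest and the most unlike the rest: its log2 values correlated with the other 5 libraries at 0.788 to 0.83, against 0.918 or more among those. Its value lay outside their range for 9226 of the genes tested (75.2%). Any library can be the highest or lowest for some genes, and this share was not computed for the others. The typical gene had a log2 fold change of 0.20 (the median of those tested), which median-of-ratios scaling took to 0.014. That median was 0.063 without saline 3 and 0.045 without saline 3 and ISO 3. Cardiomyocyte markers were abundant in every library, but Myl7, the light chain typical of atria, exceeded Myl2, that of ventricles, in 5 of 6 libraries. Myl2 ranged from 526 to 9101 FPKM in saline and from 140 to 1985 in ISO. Atrial markers as a list, which includes Myl7, summed to 10801 to 27001 FPKM in saline and 15515 to 18657 in ISO. The part of heart chamber in the levels given below was not tested. Markers of liver and of lung or airway stood high in saline 3 (summed FPKM of 861 and 218, against 142 to 188 and 8.13 to 13.5 in saline 1 and 2), and the lung list was also high in ISO 3 (189). Erythroid markers were higher in ISO for 8 of 8, with sums of 3254 to 6705 FPKM in saline and 14094 to 29595 in ISO (median log2 fold change 1.8, or 1.26 without saline 3 and ISO 3). In bulk tissue, fewer cells of a type and less RNA per cell cannot be told apart.

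Agt encodes angiotensinogen, the only known precursor of the angiotensins, and lies on the minus strand of chromosome 8 at 8:124556534-124569706 (GRCm38, as are all positions). The 30 coding bases shown next, at chr8:124564450-124564479 on the minus strand, encode angiotensin I, the stretch that renin releases; they are codons 30 to 39 of the GENCODE coding sequence.
Agt: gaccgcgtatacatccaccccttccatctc
Agt was the most abundant gene of the system. Saline 1 to 3 measured 44.9, 30.4 and 41.7 FPKM, and ISO 1 to 3 measured 24.2, 21.7 and 33.0 FPKM. Both lowest values were ISO libraries, and ISO 3 lay above saline 2, so the groups overlapped. The means were 39.0 ± 7.62 (SD, n = 3) and 26.3 ± 5.94 (SD, n = 3) FPKM, and limma put the log2 fold change at -0.55 (SE 0.26, 95% interval -1.18 to 0.067), with an adjusted p of 0.699. After median-of-ratios scaling the same gene measured 44.2, 29.0 and 53.0 in saline and 22.4, 20.5 and 28.9 in ISO, so that no ISO library reached the saline range; 894 genes (7.29%) were so placed. When libraries were weighted by their quality as limma estimates it, from 0.0772 for saline 3 up to 5.5 for ISO 2, Agt passed (log2 fold change -0.81, adjusted p = 0.0342), as did 768 genes (6.26%).

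Liver is the main source of circulating angiotensinogen, and fibroblasts and adipocytes also express it. Of 8 hepatocyte markers tested, 2 were higher and 6 lower in ISO, with summed FPKM of 142 to 861 in saline and 118 to 336 in ISO and a median log2 fold change of -1.62, or -0.090 without saline 3. All 8 were detected somewhere, and the top sum belonged to saline 3, where Agt was the second highest. Summed adipocyte markers were 2419 to 4738 in saline and 1283 to 4580 in ISO, the highest of each group being the library numbered 3 (median log2 fold change -0.22, or -1.22 without both). Fibroblast markers were higher in ISO for 9 of 10, opposite in sign to Agt. Without saline 3 and ISO 3 the Agt fold change was -0.67, and the part of these cell types in it was not tested. Cardiomyocyte markers were lower in ISO for 10 of 10, with sums of 28013 to 43014 in saline and 12071 to 21101 in ISO that did not overlap. Their median log2 fold change was -0.71, -0.47 without saline 3 and -0.037 without both libraries numbered 3. Their sums were 29066 and 28013 FPKM in saline 1 and 2, against 21101 and 20515 in ISO 1 and 2. Their part in the lower Agt was not tested either.

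The genes whose pattern over the 6 libraries was closest to that of Agt, by mean absolute difference of centred log2(FPKM + 1), were Mtx2 (0.065), which encodes a protein of the mitochondrial outer membrane, and Uqcrb (0.078), a subunit of respiratory complex III. Uqcrb measured 1140, 818 and 1152 FPKM in saline and 634, 645 and 785 FPKM in ISO, far above Agt in level, with saline 1 and 3 likewise the highest libraries. Mtx2 measured 40.7, 31.5 and 43.0 FPKM in saline against 25.3, 23.1 and 37.8 in ISO, again with ISO 3 the highest of its group. These likenesses are descriptions over 6 libraries.

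**Figure D1:**
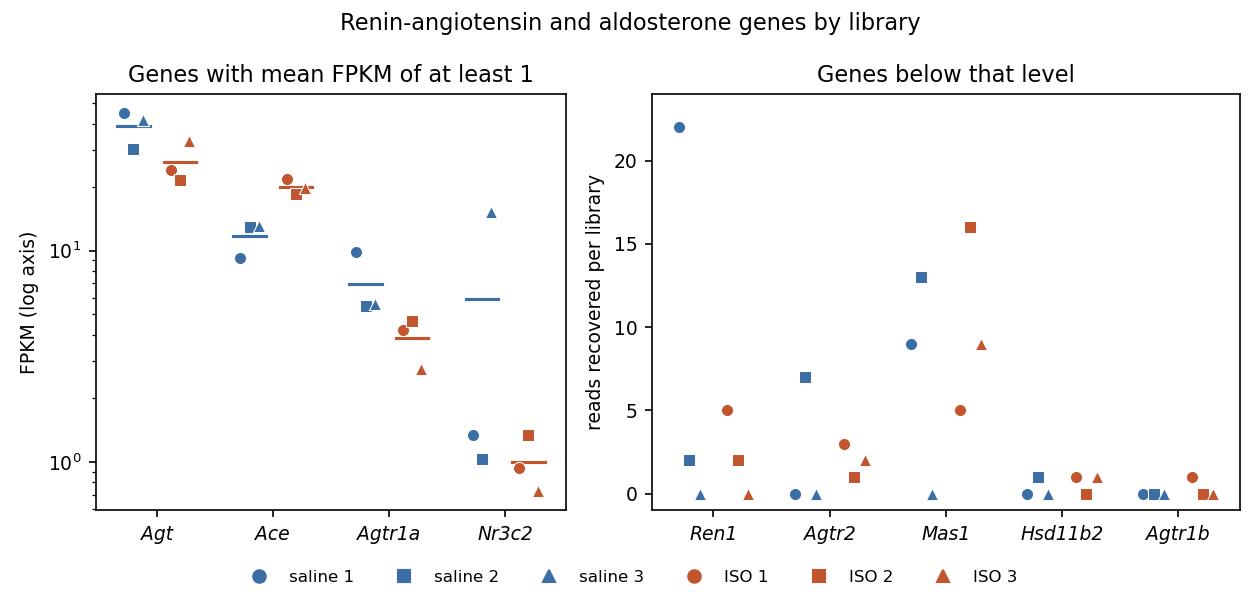
Levels of the 9 genes in each library: FPKM on a log axis for the 4 genes with a mean of at least 1 (left) and whole reads recovered for the 5 below that level (right), with saline and ISO libraries as separate points. The ISO points of Ace lie above all saline points, those of Agtr1a below all saline points, and saline 3 stands alone for Nr3c2 at 15.3 FPKM.

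Ren1 encodes renin and lies at 1:133350510-133360325 on the plus strand. It was recovered at 22, 2 and 0 reads in saline 1 to 3 and at 5, 2 and 0 reads in ISO 1 to 3, or 0.784, 0.111 and 0 FPKM against 0.238, 0.136 and 0 FPKM. Saline 1, the deepest library, held 22 of the 24 saline reads, and both libraries numbered 3 were at 0, which allows up to 0.380 FPKM in saline 3 and 0.188 FPKM in ISO 3 (3 reads each; such limits and Poisson intervals cover counting error only). With no filter on low values limma gave -0.16 as its log2 fold change (SE 0.23, adjusted p = 0.788), which on the log2(FPKM + 1) scale understates ratios of low genes. Ren2, the closely related renin gene that C57BL/6 mice lack, was listed at 0 in all 6 libraries. The depth here does not resolve a difference in local renin message.

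Other proteases can take the place of renin and ACE in tissue. Mast cell chymase, encoded by Cma1 and Mcpt4 in this list, forms angiotensin II without ACE. Cma1 measured 0.279, 3.78 and 0.330 FPKM in saline and 2.49, 1.60 and 3.10 FPKM in ISO, and Mcpt4 measured 1.33, 3.52 and 4.37 against 5.20, 3.53 and 7.20 FPKM. Saline 2 held the highest Cma1 value of all, so the groups overlapped for both (log2 fold changes 0.73 and 0.67). Single libraries moved both: Cma1 was 1.36 without saline 2, 0.40 without saline 1 and 0.43 without saline 3, and Mcpt4 was 0.31 without saline 1. Mast cell markers as a list, which includes both genes, were higher for 5 of 6 tested, with sums of 11.3 to 25.0 FPKM in saline and 20.3 to 27.3 in ISO, and Ms4a2, a chain of the mast cell IgE receptor, was at 0 throughout. Cathepsin G (Ctsg) was listed at 0 in every library. The lysosomal protease cathepsin D (Ctsd), a relative of renin, measured 244, 274 and 466 FPKM in saline and 298, 603 and 555 in ISO, and the prorenin receptor Atp6ap2, which is also a part of the lysosomal proton pump, measured 11.5, 9.64 and 7.15 FPKM against 9.84, 22.0 and 20.2. In both, ISO 1 lay inside the saline range while ISO 2 and ISO 3 lay above it.

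Ace lies at 11:105967945-105989964 on the plus strand, and its RefSeq entries start at separate sites: one for the long form made by endothelium and one inside the gene for the short form of the testis. The 100 bases before each start are shown because a single deposited value covers both, chr11:105967848-105967947 for start 1 and chr11:105975089-105975188 for start 2 (GRCm38.p6, plus strand). Capitals mark the letters TATAA, searched on both strands, and the overlapping match on the other strand that begins just before.
Ace start 1: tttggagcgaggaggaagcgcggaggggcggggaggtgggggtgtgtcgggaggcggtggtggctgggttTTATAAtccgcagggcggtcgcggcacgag
Ace start 2: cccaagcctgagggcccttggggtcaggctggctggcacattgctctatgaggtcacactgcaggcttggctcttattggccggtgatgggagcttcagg
The letters were found at -30 and -29 before start 1 and nowhere before start 2, and 10.2% of 32851 promoter windows of that length hold them. This describes the letters only.

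Ace was the one gene of the 4 tested whose level was higher in ISO. Its level was 9.24, 12.9 and 13.1 FPKM for saline 1 to 3, against 21.8, 18.5 and 19.9 FPKM for ISO 1 to 3. Every ISO library was above every saline library, which was so for 1572 of the genes tested (12.8%), and after median-of-ratios scaling, for 918 (7.48%), Ace still among them at 9.10, 12.3 and 16.6 against 20.2, 17.5 and 17.5. The group means were 11.7 ± 2.16 (SD, n = 3) and 20.1 ± 1.62 (SD, n = 3) FPKM. Its log2 fold change was 0.74 (SE 0.23, 95% interval 0.19 to 1.29, unadjusted p = 0.0152, adjusted p = 0.699 with limma), on 192 to 849 reads per library. With quality weights it passed, at 0.87 (adjusted p = 0.0208 with limma), and without saline 3 and ISO 3 it was 0.82 (adjusted p = 0.167). An antisense transcript, Gm11651, shares 295 exonic bases with Ace, and since no source here gives the strand setting of the authors' counting, reads from it cannot be told apart from those of Ace.

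ACE is carried mainly by endothelium and is also made by macrophages. Endothelial markers were higher in ISO for 9 of 10, with sums of 379 to 833 FPKM in saline and 736 to 953 in ISO. Saline 3 set the low end of that range, and the list median log2 fold change of 0.44 was 0.086 without it. Ace was at 0.82 without saline 3, and at 0.59 to 0.82 with any 1 library left out. Macrophage markers were higher for 10 of 10, with sums of 427 to 743 in saline and 934 to 1817 in ISO. Their median log2 fold change was 0.95, or 1.04 without saline 3, and no marker of either list was at 0 in all libraries. Erythroid markers, as given above, were also higher in every ISO library. The part of any of these cell types in the Ace level was not tested. Closest in pattern to Ace were Fcgr3 (0.083), an Fc receptor of myeloid cells, at 13.5, 20.6 and 18.9 FPKM in saline and 28.1, 26.3 and 31.9 in ISO, and Wipf1 (0.085), an actin regulator abundant in blood cells, at 6.12, 8.10 and 7.97 against 11.1, 11.0 and 12.1.

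Of 16 genes that process angiotensin peptides, 13 were tested, 12 were higher and 1 lower in ISO, 0 were called and 1 did not overlap between groups, where 12.8% of all genes tested had no overlap with ISO higher. That gene, named after its values were seen, was the carboxypeptidase Prcp, which also removes angiotensin II, at 8.21, 7.86 and 4.01 FPKM in saline and 13.0, 12.4 and 13.1 in ISO (log2 fold change 0.90). The median log2 fold change was 0.53 (0.34 after median-of-ratios scaling), beside 0.20 (0.014) over all genes tested, of which 68.1% were higher. Neprilysin (Mme), which also degrades angiotensin and natriuretic peptides, measured 0.575, 3.00 and 1.02 FPKM in saline and 0.869, 4.46 and 4.22 in ISO. Aminopeptidase A (Enpep), which trims angiotensin II to angiotensin III, was the one lower gene: it measured 5.04, 3.39 and 3.17 FPKM against 3.74, 3.78 and 3.51, with the ISO values inside the saline range. Carboxypeptidase A3 (Cpa3), a mast cell enzyme, measured 0.548, 2.14 and 0 FPKM in saline and 1.28, 0.262 and 2.77 in ISO.

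The AT1 receptor is encoded in mice by separate, similar genes, Agtr1a at 13:30336441-30382867 on the plus strand and Agtr1b at 3:20314473-20367177 on the minus strand. Their first 90 coding bases, at chr13:30380954-30381043 (plus strand) and chr3:20316351-20316440 (minus strand), are shown because reads from such copies can be split wrongly. Capitals mark the 8 positions in this stretch at which the genes differ.
Agtr1a: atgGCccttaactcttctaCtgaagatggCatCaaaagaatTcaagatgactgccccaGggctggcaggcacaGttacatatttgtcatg
Agtr1b: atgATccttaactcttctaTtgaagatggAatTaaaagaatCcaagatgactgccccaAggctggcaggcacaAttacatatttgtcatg
Over the whole coding sequence of 1080 bases, 99 positions differ (90.8% identical). Of the windows of 50 bases in Agtr1a, 33 of 1031 (3.20%) occur unchanged in Agtr1b, and of the windows of 100 bases, 0 of 981 do, so a read of that length from the coding sequence differs between them in at least 1 place.

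Agtr1a stood at 9.89, 5.50 and 5.58 FPKM in the saline libraries, in order, and at 4.20, 4.67 and 2.76 FPKM in the ISO libraries. All 3 ISO libraries were below all 3 saline libraries, a placement found for 456 of the genes tested (3.72%). Agtr1a kept it after median-of-ratios scaling, at 9.73, 5.25 and 7.10 against 3.89, 4.40 and 2.42, where 894 genes (7.29%) were so placed. The gap between the nearest libraries was narrow beside counting error: the 95% exact Poisson interval was 4.39 to 6.80 FPKM for saline 2 (85 reads) and 3.56 to 6.02 for ISO 2 (59 reads). Means were 6.99 ± 2.51 (SD, n = 3) and 3.88 ± 0.995 (SD, n = 3) FPKM, and the log2 fold change was -0.69 (SE 0.32, 95% interval -1.43 to 0.052, unadjusted p = 0.0639, adjusted p = 0.699 with limma). It ranged from -0.82 to -0.44 with any 1 library left out, and the value nearest 0 was the one without saline 1. With quality weights it was -0.80 (adjusted p = 0.0537 with limma).

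Agtr1b gave 1 read in all, in ISO 1 (0.0631 FPKM), and was at 0 in the other 5 libraries, which allows up to 0.142 to 0.503 FPKM in the saline libraries. The sum of both genes therefore followed Agtr1a: as log2(FPKM + 1) it was 3.44, 2.70 and 2.72 in saline and 2.40, 2.50 and 1.91 in ISO. The difference was -0.68 with a two-sided exact permutation p of 0.10 (0.133 after Benjamini-Hochberg adjustment over 4 contrasts), and 0.10 is the smallest that 3 against 3 libraries allow.

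The gap between receptor and enzyme was wider in ISO within libraries. Agtr1a minus Ace, in log2(FPKM + 1), was 0.088, -1.10 and -1.10 in the saline libraries, against -2.13, -1.78 and -2.48 in the ISO libraries. Only in saline 1 were the levels near equal, and in every ISO library Ace exceeded Agtr1a by more than in any saline library. The means were -0.70 ± 0.68 (SD, n = 3) and -2.13 ± 0.35 (SD, n = 3), a difference of -1.43 with an exact permutation p of 0.10 (adjusted p = 0.133). As single genes, Ace was higher and Agtr1a lower in every ISO library than in any saline library. The lack of overlap and the p-value of their difference follow from that and are no further support. Being taken within a library, this contrast is little affected by library scaling, and with any 1 library left out it ranged from -1.63 to -1.03.

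**Figure D2:**
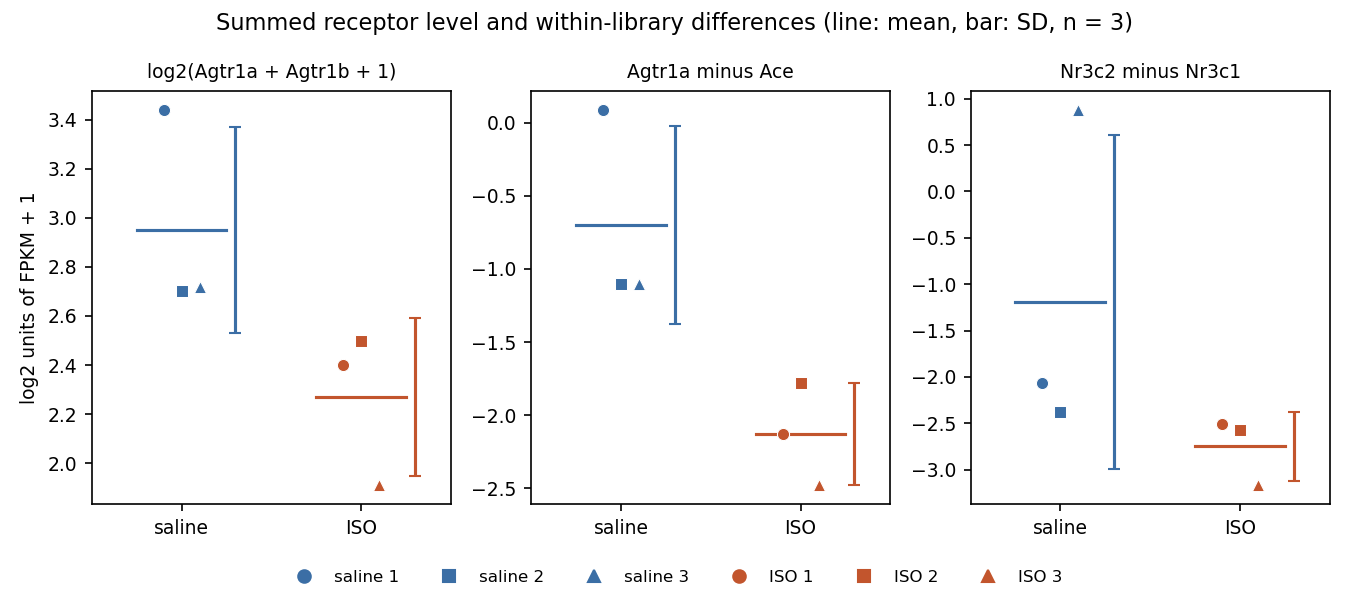
Within-library contrasts in log2(FPKM + 1) for each library, saline beside ISO: the AT1 receptor sum, Agtr1a minus Ace, and Nr3c2 minus Nr3c1, with the mean as a line and the SD as a bar. Groups do not overlap in any panel, and saline 3 stands apart for Nr3c2 minus Nr3c1 at 0.88.

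Vascular smooth muscle, pericytes and fibroblasts carry AT1 receptors. Pericyte and smooth muscle markers were higher in ISO for 7 of 10 and lower for 3, with sums of 284 to 435 FPKM in saline and 323 to 456 in ISO, a median log2 fold change of 0.024. Fibroblast markers had sums of 1585 to 2281 in saline and 2636 to 3222 in ISO. The pericyte and smooth muscle sums overlapped, the fibroblast sums were higher in every ISO library, and no marker of these lists was at 0 in all libraries. Nearest in pattern to Agtr1a were Tubb4b (0.113), a tubulin, at 233, 137 and 141 FPKM in saline and 138, 141 and 88.1 in ISO, and Dtna (0.117), dystrobrevin of the muscle membrane complex, at 5.75, 3.72 and 3.56 against 2.80, 2.66 and 2.19. Cardiomyocyte markers had the same sign as Agtr1a. Without both libraries numbered 3 their median was -0.037 and Agtr1a was -0.63. Their sums were 29066 and 28013 FPKM in saline 1 and 2, against 21101 and 20515 in ISO 1 and 2. The part of cardiomyocytes in the Agtr1a level was not tested.

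**Figure D3:**
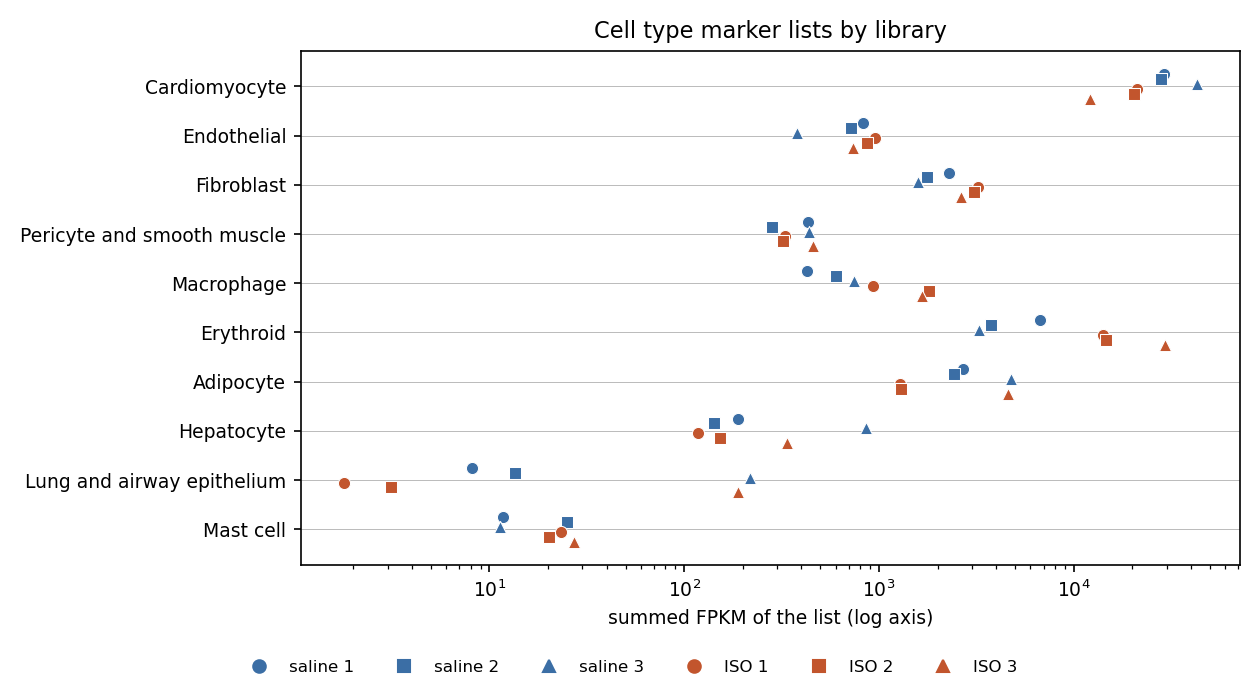
Summed FPKM of cell type marker lists in each library on a log axis, with 1 symbol per library. Cardiomyocyte sums are lower and fibroblast, macrophage and erythroid sums higher in all ISO libraries, and the lung and airway list is high in saline 3 (218) and ISO 3 (189).

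Agtr2, the gene of the AT2 receptor, lies at X:21484544-21489164 on the plus strand and is known for its fetal expression and low adult level. It was recovered at 0, 7 and 0 reads in saline and 3, 1 and 2 reads in ISO, or 0, 0.377 and 0 FPKM against 0.138, 0.0658 and 0.121 FPKM. All saline reads were in saline 2, and totals of 7 and 6 reads do not resolve a difference. Mas1, the receptor of angiotensin-(1-7), lies at 17:12841079-12868143 on the minus strand. It gave 9, 13 and 0 reads in saline and 5, 16 and 9 in ISO, or 0.0793, 0.179 and 0 FPKM against 0.0589, 0.270 and 0.139 FPKM. Saline 3 was at 0, which allows up to 0.0939 FPKM, and the groups overlapped. The length inferred from the deposited Mas1 values is 11505 bases, the smallest that gives whole reads, against 2620 in the GENCODE annotation. Its FPKM per read is thus lower than that annotation would give. Without a filter on low values, log2 fold changes were -0.0060 for Agtr2 (adjusted p = 0.986 with limma) and 0.089 for Mas1 (adjusted p = 0.761 with limma).

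Of 26 partners and signalling genes of the angiotensin receptors, 23 were tested, 16 were higher and 7 lower in ISO, 0 were called and 6 did not overlap, all of them higher. Over all genes tested 68.1% were higher and 12.8% had no overlap with ISO higher. The share of higher genes here is near that background, while 6 of 23 without overlap is a larger share. That excess was not tested. The median log2 fold change of the list was 0.30 (0.10 after median-of-ratios scaling), beside 0.20 (0.014) over all genes. Agtrap, which binds the AT1 receptor and promotes its internalization, measured 4.81, 4.86 and 4.01 FPKM in saline and 6.02, 5.78 and 6.04 in ISO. Its groups did not overlap, before or after that scaling, at a log2 fold change of 0.32 (0.14 after it). Gnaq, the G protein alpha subunit through which AT1 signals, measured 7.86, 9.68 and 1.79 FPKM in saline and 10.7, 12.4 and 16.3 in ISO. Saline 3 was far below the others, and the log2 fold change of 1.12 was 0.52 without it. Cybb, the catalytic subunit of the phagocyte NADPH oxidase, measured 5.59, 2.84 and 1.12 FPKM in saline and 7.87, 62.1 and 72.1 in ISO, the widest gap among the genes of these lists named here (log2 fold change 3.19, SE 0.84, unadjusted p = 0.00632, adjusted p = 0.699 with limma). ISO 1 lay near the saline range. Phagocytes express Cybb, and the macrophage list, which does not hold it, was higher in all ISO libraries; its part in the Cybb level was not tested. With quality weights Cybb passed, at 2.88 (adjusted p = 0.0468 with limma). The other 3 without overlap, named after their values were seen, were its partner subunit Cyba (log2 fold change 0.91, with overlap after median-of-ratios scaling), the receptor kinase Grk5 (0.34) and protein kinase C delta (Prkcd), at 9.16, 6.93 and 5.76 FPKM in saline and 14.4, 21.6 and 15.7 in ISO (1.14).

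The oxidase Nox4 measured 2.39, 3.33 and 4.05 FPKM in saline and 3.16, 2.56 and 15.3 in ISO, so its log2 fold change of 0.57 came from ISO 3 and was -0.13 without it. Mtus1, a partner of the AT2 receptor, measured 25.3, 24.3 and 7.77 FPKM in saline and 30.1, 26.7 and 17.2 in ISO, with both libraries numbered 3 lowest in their groups, and its log2 fold change of 0.48 was -0.043 without saline 3. Lnpep, the insulin-regulated aminopeptidase that binds angiotensin IV, measured 4.79, 4.71 and 3.75 FPKM against 3.74, 4.08 and 4.13. Its groups overlapped, but after median-of-ratios scaling all ISO values were below all saline values, as for 7.29% of all genes tested. Its log2 fold change was -0.12, or -0.29 after that scaling. Rgs2, which shortens Gq signals, measured 23.7, 18.0 and 5.03 FPKM against 10.2, 10.9 and 16.2. Saline 3 was its lowest library, and the log2 fold change of -0.10 was -0.72 without it and passed with quality weights (-0.91, adjusted p = 0.0338 with limma).

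Nr3c2 encodes the mineralocorticoid receptor, a nuclear receptor and transcription factor, and lies at 8:76899442-77245012 on the plus strand. Saline 1 to 3 gave 1.34, 1.03 and 15.3 FPKM, and ISO 1 to 3 gave 0.939, 1.34 and 0.726 FPKM. Saline 3 was 11.4 times the highest other library, and the remaining 5 lay between 0.726 and 1.34 FPKM with the groups overlapping. That value rests on 208 reads, a 95% exact Poisson interval of 13.3 to 17.5 FPKM, so counting error is small beside that gap. In limma its log2 fold change was -1.10 (SE 0.77, 95% interval -2.91 to 0.71) at an adjusted p of 0.699. It was -0.14 without saline 3, -0.085 with quality weights and -0.034 without both libraries numbered 3. In the same library 119 of the genes tested (0.970%) were over 10 times the highest other library, against 0 in saline 1 and saline 2, 1 each in ISO 1 and ISO 2, and 4 in ISO 3.

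The genes most like Nr3c2 in pattern share this high value. Fgf16 (0.130), a fibroblast growth factor expressed in heart, measured 0.600, 0.469 and 8.53 FPKM in saline and 0.357, 1.08 and 0.293 in ISO. Dydc1 (0.125) measured 0.306, 0 and 9.05 FPKM against 0.272, 0.195 and 0. Saline 3 also had the highest summed liver, lung, adipocyte and cardiomyocyte markers (43014 FPKM for the last) and the lowest summed atrial markers (10801 FPKM). The part of any of these in its Nr3c2 level was not tested. An RNA that starts near Nr3c2 on the opposite strand, Gm10649, shares 247 exonic bases with it and cannot be told apart without strand.

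The glucocorticoid receptor Nr3c1, the relative that shares hormones with the mineralocorticoid receptor, measured 8.85, 9.55 and 7.86 FPKM in saline and 10.0, 12.9 and 14.5 in ISO, with no overlap (log2 fold change 0.45); after median-of-ratios scaling the groups overlapped. Nr3c2 minus Nr3c1 within each library was -2.07, -2.38 and 0.88 in saline and -2.51, -2.57 and -3.17 in ISO. Saline 3 was the only library in which Nr3c2 was above Nr3c1. The difference of -1.56 had an exact permutation p of 0.10 (adjusted p = 0.133). It was -0.52 without saline 3 and -0.31 without both libraries numbered 3, in each case with the ISO libraries lower.

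Hsd11b2, which protects the mineralocorticoid receptor from glucocorticoids in kidney and colon, lies at 8:105518755-105523988 on the plus strand. It gave 0, 1 and 0 reads in saline and 1, 0 and 1 in ISO, at most 0.0963 FPKM. A 0 in saline 3 allows up to 0.584 FPKM, so the level was not measurable at this depth. Hsd11b1, which regenerates active glucocorticoid, measured 9.87, 3.88 and 21.4 FPKM in saline and 6.64, 9.13 and 8.04 in ISO. The ISO values lay within the saline range, and the log2 fold change of -0.25 was 0.28 without saline 3 and -0.81 without saline 2. Aldosterone synthase (Cyp11b2), 11-beta-hydroxylase (Cyp11b1), Cyp21a1 and Hsd3b1, which act in adrenal steroid synthesis, were listed at 0 in all 6 libraries. Cyp11a1, which starts that synthesis, was detected at 0.663, 0.570 and 0 FPKM in saline (20, 11 and 0 reads) and at 2, 1 and 3 reads in ISO, too low for the test. Of the 12 genes of steroid synthesis and corticosteroid handling, 7 were tested, 3 were higher and 4 lower, and 0 were called. Their median log2 fold change was -0.071, or 0.19 without saline 3, beside 0.20 and 0.063 over all genes. Besides Nr3c1, the cholesterol transport gene Star, named after its values were seen, did not overlap: it measured 2.23, 1.46 and 3.33 FPKM in saline and 0.947, 1.16 and 0.800 in ISO (log2 fold change -0.73). Over all genes tested 16.5% had no overlap in either direction, and 3.72% none with ISO lower.

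Genes that answer to both corticosteroid receptors were divided. Of 16, 12 were tested, with 6 higher and 6 lower in ISO, 0 called and a median log2 fold change of 0.10, or -0.21 after median-of-ratios scaling. Tsc22d3, the glucocorticoid-induced leucine zipper, measured 77.5, 80.2 and 57.6 FPKM in saline and 106, 92.9 and 112 in ISO, without overlap before or after scaling (log2 fold change 0.53, unadjusted p = 0.0510, adjusted p = 0.699 with limma). The other gene of this list without overlap was the cell cycle inhibitor Cdkn1a, named after its values were seen, at 7.99, 11.0 and 10.3 FPKM against 16.4, 31.0 and 26.3 (log2 fold change 1.21). These 2 of 12 are near the 16.5% of all genes tested that had no overlap. Sgk1, a kinase induced by aldosterone, measured 33.2, 29.2 and 11.1 FPKM against 21.1, 25.5 and 42.1. The sign of its log2 fold change of 0.34 turned to -0.13 without saline 3. Per1, a clock gene with a glucocorticoid response, measured 22.0, 24.5 and 9.14 FPKM against 15.8, 15.5 and 16.5, where saline 3 was again the lowest, and its log2 fold change of -0.10 was -0.52 without that library and above 0 without saline 1 (0.075) or saline 2 (0.15). Fkbp5, a chaperone partner of the receptors, was below the level for testing, at 0.574, 0.408 and 0.185 FPKM in saline and 0.105, 0.949 and 1.38 in ISO.

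Genes that angiotensin II is known to induce, fibrosis genes among them, had a higher median fold change than all genes. Of 16 tested, 13 were higher and 3 lower, 0 were called and 3 did not overlap, all of them higher: Ctgf and, named after their values were seen, the matrix genes Postn (log2 fold change 1.67) and Col1a1 (0.96). Over all genes 68.1% were higher and 12.8% had no overlap with ISO higher, and Ctgf overlapped after median-of-ratios scaling. The 3 lower genes were Acta2 (log2 fold change -0.29), Nppb (-0.25) and Egr1 (-0.18), and Nppa was at 0.050. These were also named after their values were seen. The list median log2 fold change was 0.95 (0.74 after median-of-ratios scaling), and 0.28 without saline 3 and ISO 3, where that of all genes was 0.045. Connective tissue growth factor (Ctgf, now Ccn2) measured 53.1, 50.2 and 45.4 FPKM in saline and 59.7, 62.1 and 183 in ISO, and endothelin 1 (Edn1), a vasoconstrictor peptide, measured 3.89, 3.78 and 6.90 against 6.78, 8.16 and 30.3. ISO 3 was the highest library for both: their log2 fold changes of 0.82 and 1.20 were 0.29 and 0.57 without it. Tgfb1, the main profibrotic cytokine, measured 19.9, 23.3 and 25.7 FPKM against 25.2, 36.9 and 50.7. Fibroblast markers, of which 1 (Col1a1) is also in this list, were higher in ISO as given above, and their part in these values was not tested.

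**Figure D4:**
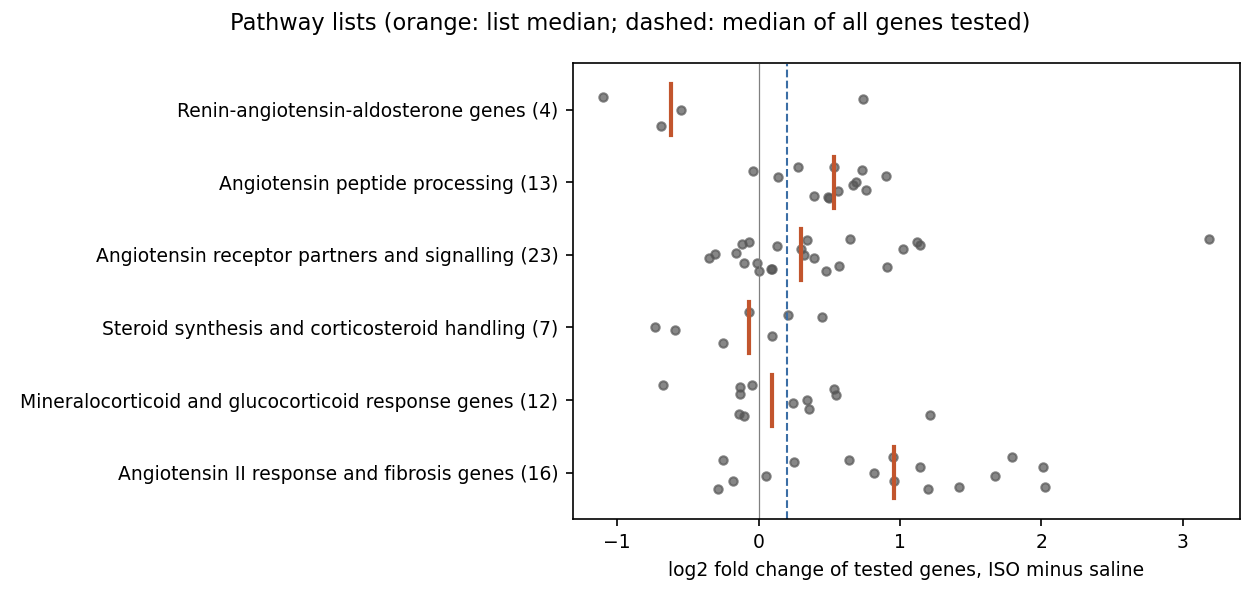
Log2 fold change (ISO minus saline) of each tested gene of the system and of 5 wider lists, with the list median as an orange bar and the median of all genes tested (0.20) as a dashed line. The 4 genes of the system have a median of -0.62, the angiotensin II response and fibrosis list one of 0.95.

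Across the system the order of mean level over the 6 libraries was Agt (32.7 FPKM), Ace (15.9), Agtr1a (5.43), Nr3c2 (3.44), Ren1 (0.212), Mas1 (0.121), Agtr2 (0.117), Hsd11b2 (0.0426) and Agtr1b (0.0105). This order rests on the gene lengths implied by the deposited values. They differ from GENCODE most for Mas1 (11505 against 2620 bases), Ren1 (2846 against 1657) and Nr3c2 (4909 against 6474), and other lengths could change the order. Agt was above Ace within every library, although the lowest Agt value (21.7, ISO 2) and the highest Ace value (21.8, ISO 1) met. Ace and Agtr1a overlapped only through saline 1, where Agtr1a (9.89) was above Ace (9.24). Agtr1a was above Nr3c2 in every library except saline 3. Neighbours among the last 5 overlapped in their ranges over libraries. Of the 4 genes tested, 1 was higher and 3 lower in ISO, a median log2 fold change of -0.62 beside 0.20 over all genes, of which 3918 of 12269 were lower.

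**Figure D5:**
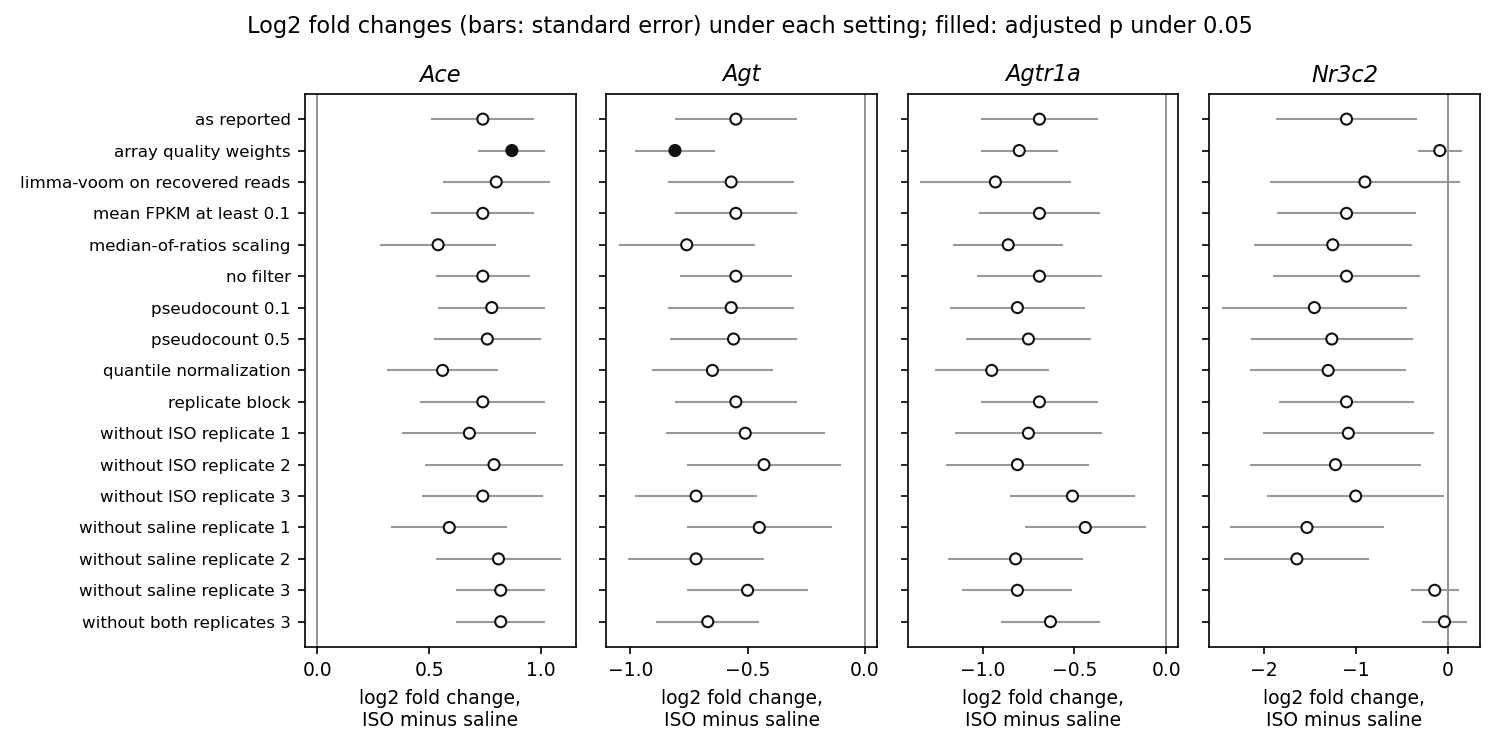
Log2 fold change (ISO minus saline) of Agt, Ace, Agtr1a and Nr3c2 under each processing alternative and with each library left out, with bars for the standard error; the top row is the value as reported and filled points have an adjusted p under 0.05. Agt, Agtr1a and Nr3c2 stay below 0 and Ace above 0 throughout, and Nr3c2 comes near 0 where saline 3 is left out or given little weight.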

How the data were processed

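The authors deposited a single table of FPKM values, with 21989 gene symbols and 6 libraries. Tools named in the submitters' processing notes are HISAT2 2.1.0, Cufflinks 2.2.1, HTSeq 0.7.2, DESeq, fastp 0.20.0 and CASAVA 1.8, with the build GRCm38. Which tool made the deposited FPKM, the annotation release and the strand setting are not given in the sources used here. FPKM is relative to the library total, so abundant genes that are high push all others down. Reads were recovered from the steps of the values: 16813 of 16816 genes above 0 in at least 2 libraries gave whole reads within 0.0001. The annotated gene length was used where it gave whole reads. Otherwise the smallest whole length that did was taken, so such lengths are inferred. The recovery and the fit were tested on simulated data.

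Values were tested as log2(FPKM + 1), which understates the change of low genes, over the 12269 genes whose mean FPKM reached 1. limma 3.58.1 in R 4.3.3 fitted group alone, with a mean-variance trend, and p-values were adjusted by Benjamini-Hochberg, with calls at 0.05. The 4 contrasts, of which 3 are given, had two-sided exact permutation tests, and 16 alternatives were tried. The genes, lists and tests were chosen with earlier results of these data known. Named genes were all 9 components, 28 pathway genes chosen for role (some, and 1 contrast, are not reported here), and for each tested component the 2 genes nearest in pattern. Positions come from GENCODE M21, promoter sequences from RefSeq (GRCm38.p6). Agtr1a and Hsd11b2 had no promoter entry. Genes were located by symbol, and the replicate numbers were not taken as pairs of libraries.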

Additional observations from a re-analysis of the deposited data

How the results depend on the processing

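Of 16 alternatives (other pseudocounts, filters and scalings, limma-voom on recovered reads, quality weights, a replicate block, 1 library left out in turn, and both libraries numbered 3 left out, the last chosen after seeing the data), direction and side of the threshold were kept in 16 for Agtr1a and Nr3c2 and in 15 for Agt and Ace. Nr3c2 was near 0 with quality weights (-0.085, SE 0.24) and without both libraries numbered 3 (-0.034, SE 0.25), against -1.10 as reported. Quality weights called 768 genes, Agt (-0.81, adjusted p = 0.0342 with limma) and Ace (0.87, adjusted p = 0.0208 with limma) among them, and the cause was not tested. With 1 library left out, 0 to 16 genes were called, the 16 without ISO 1. Log2 fold changes then ranged from -0.72 to -0.43 for Agt, 0.59 to 0.82 for Ace, -0.82 to -0.44 for Agtr1a and -1.64 to -0.14 for Nr3c2. The contrasts ranged from -0.81 to -0.44 for the AT1 sum, -1.63 to -1.03 for Agtr1a minus Ace and -2.15 to -0.52 for Nr3c2 minus Nr3c1. Of the 4 components tested, 1 (Ace) was above 0 in each of these. Lower filters bring in weaker components: Mas1 (0.089) is above 0 at a minimum mean of 0.1, and with no filter so are Hsd11b2 (0.039) and Agtr1b (0.029).

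The labels share replicate numbers 1 to 3 between groups, but deviations of same-numbered libraries correlated at 0.01, -0.15 and -0.03, so the numbers are not taken as pairs. With a replicate block, 0 genes were called (553 at an unadjusted p under 0.05) and each tested component had an adjusted p of 0.752 with limma; the contrasts each had an exact permutation p of 0.25, where 3 pairs cannot go below 0.25. Depth limits Ren1, Agtr1b, Agtr2, Mas1 and Hsd11b2, which had 0 to 22 reads in a library.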
